A study of Mus musculus with 16 samples.

Results

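The phase II conjugation enzymes of mouse liver were followed as 38 genes: 18 glutathione S-transferases (Gst and Mgst), 11 genes of glucuronidation (Ugt, with Ugdh, which makes the donor sugar), 5 sulfotransferases (Sult) and 4 methyl- and acetyltransferases (Tpmt, Nnmt, Nat8 and Nat2). The members were a list of gene names, chosen with earlier results of these data known, so their counts beside all genes are descriptive. A probe set was taken where it was annotated to member genes and to no other gene. By that rule 37 of the 38 genes were measured, on 52 of 45037 probe sets, out of 18193 genes with a probe set of their own. Ugt1a1 was the exception, since its probe sets are shared with other genes of the Ugt1a locus that are not members.

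Phase II enzymes attach a polar group to drugs, carcinogens, steroids, bilirubin or reactive lipid products, which makes them easier to excrete in bile and urine. Glutathione S-transferases add glutathione to electrophiles, UDP-glucuronosyltransferases add glucuronic acid from UDP-glucuronic acid, sulfotransferases add sulfate from the donor PAPS, and methyl- and acetyltransferases use S-adenosylmethionine and acetyl-CoA. The liver is rich in all of these enzymes, and many are controlled by receptors that sense foreign compounds and lipids. PPARα, encoded by Ppara, is a nuclear receptor that binds fatty acids and fibrate-like compounds and pairs with RXR on DNA.

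Liver RNA of 16 male mice aged 12 to 20 weeks was hybridized to Affymetrix mouse genome 430 2.0 arrays, with 1 array per mouse. The groups, of 4 mice each, were PPARα-null (129S4/SvJae) mice given 0.1% (w/w) Wy14643 in the food for 5 days, PPARα-null mice on control food, wild-type (129S1/SvImJ) mice on the same Wy14643 food for 5 days, and wild-type mice on control food. Wy14643 is a synthetic PPARα agonist. The design asks which responses to the agonist need the receptor. The mice are called knockout or wild type below, and because the genotypes lay on different substrains, the effects of Ppara and of substrain cannot be told apart wherever the genotypes are set against each other.

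All values are log2 of the normalized intensity of a gene's brightest single-gene probe set, and levels are compared only within a probe set. A difference was called at an adjusted p under 0.01 (limma, Benjamini-Hochberg over all probe sets, two-sided) with a fold over 1.5, and each is given ± its standard error with 4 livers in each group. Ppara itself read between 9.35 and 10.04 in knockout livers on Wy14643 and between 8.82 and 9.71 in knockout livers on control food, against 10.70 to 10.82 in wild-type livers on Wy14643 and 9.77 to 10.07 in wild-type livers on control food. The difference was -1.15 ± 0.17 on Wy14643 (limma, adjusted p = 5.1e-05) and -0.63 ± 0.17 on control food (limma, adjusted p = 0.14, not called). The other 2 Ppara probe sets were called lower in knockouts on both foods without overlap, at -1.43 and -2.20 on Wy14643 (adjusted p = 1.94e-07 and 3.95e-08) and -1.38 and -1.59 on control food (adjusted p = 9.68e-06 and 5.9e-05). All 3 probe sets thus read lower in knockouts, as the labels have it, with signal left in them. Between arrays of a group, Pearson's r across the 12877 probe sets with a mean log2 value above 4 was 0.975 to 0.991, against 0.877 to 0.914 between wild-type arrays on Wy14643 and arrays of the other groups.

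On Wy14643, most of the conjugation enzymes that changed in wild-type liver were lower. Of the 37 measured members 16 fell, 6 rose and 15 were not called, beside 14.5% of all genes called (7.72% higher and 6.74% lower). The median member difference was -0.28, against -0.03 over all genes. In whole liver, fewer cells of a type and less RNA per cell cannot be told apart. Among genes with a mean log2 value above 6, 28.3% were called (12.4% higher and 15.9% lower), against 5 higher and 15 lower of the 34 members as bright as that. In knockout liver 0 of 37 members were called in limma, beside 0.0275% of all genes, with member differences between -0.29 and 0.65. At an unadjusted limma p under 0.05 stood 9 members (8 higher and 1 lower). All genes were not counted at that looser threshold, so no excess can be read from it. The responses of the genotypes differed for 20 members, 16 with a higher and 4 with a lower response in knockouts, beside 10.0% of all genes (4.62% higher and 5.38% lower). Among the 5170 genes with a mean log2 value above 6, 650 had a higher and 509 a lower response in knockouts. Of the 34 members as bright as that, 15 had a higher and 3 a lower response.

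By family, 4 of 18 glutathione S-transferases rose in wild-type liver and 7 fell. Of the glucuronidation genes, grouped by the Ugt name with Ugdh, 2 of 10 rose (Ugt3a1 and Ugdh) and 4 fell. All that fell were Ugt2 genes, and no Ugt2 gene was called higher. Of the sulfotransferases 4 of 5 fell and none rose, at a median of -1.98, and of the methyl- and acetyltransferases 1 of 4 fell. Values of wild-type livers on Wy14643 and on control food did not overlap for 27 members (7 higher and 20 lower), beside 29.1% of all genes (14.4% higher and 14.7% lower), and in knockouts for 2 members, Gstt2 and Tpmt, beside 6.38% of all genes.

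**Figure D1:**
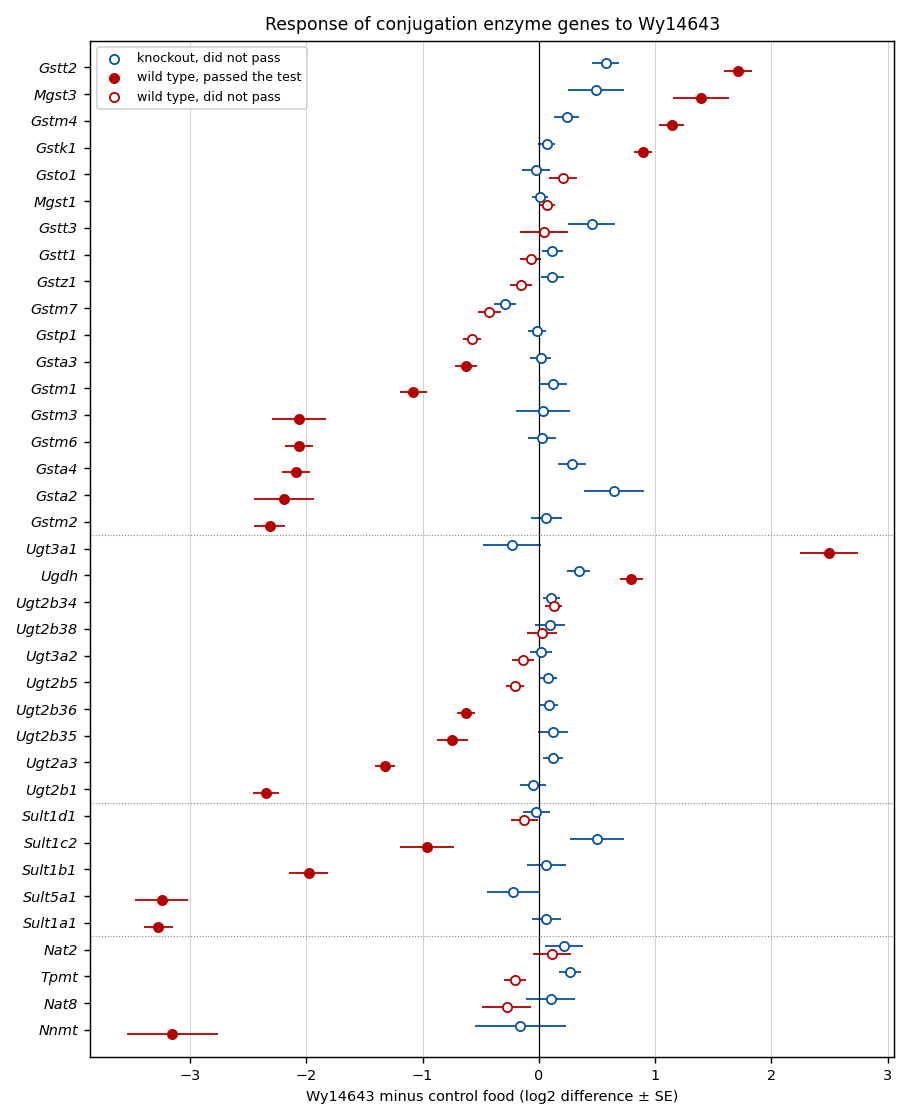
Log2 difference between Wy14643 and control food (x axis) for each member gene, in knockout and in wild-type livers (points, with whiskers of ± 1 standard error, 4 livers in each group), with filled points for differences that passed the test. Knockout points lie between -0.29 and 0.65, while wild-type points reach from -3.27 to 2.50.

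The sulfotransferases held the largest decrease of all members. Sult1a1, which sulfates phenols, read 11.62, 11.40, 11.66 and 11.68 in knockout livers on Wy14643, against 11.58, 11.66, 11.42 and 11.45 in knockout livers on control food. It read 8.71, 8.12, 8.07 and 8.48 in wild-type livers on Wy14643, against 11.56, 11.71, 11.64 and 11.57 in wild-type livers on control food. The wild-type livers on Wy14643 stood alone, below every other liver, while the other groups overlapped. Sult1a1 fell 9.66-fold in wild-type liver, with a log2 difference of -3.27 ± 0.13 (limma, adjusted p = 2.89e-12), against 0.06 ± 0.13 in knockouts, and the difference of the responses was 3.33 ± 0.18 (adjusted p = 7.05e-10). In the promoter of Sult1a1, shown because the gene had the largest decrease, neither the PPARα direct repeat nor the antioxidant core (letters given with Ugt3a1) was found. The window runs from 250 bases before to 50 after the start in RefSeq (GRCm38.p6, chr7:126676369-126676668, minus strand, all in lower case as it holds no match).
Sult1a1 promoter: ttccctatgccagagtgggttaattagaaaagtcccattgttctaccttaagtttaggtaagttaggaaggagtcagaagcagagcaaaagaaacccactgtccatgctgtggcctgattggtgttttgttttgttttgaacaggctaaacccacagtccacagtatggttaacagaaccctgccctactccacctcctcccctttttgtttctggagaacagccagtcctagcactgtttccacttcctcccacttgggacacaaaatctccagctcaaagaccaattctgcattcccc

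Sult5a1, a less studied sulfotransferase, read 8.66, 8.89, 8.09 and 8.26 in knockout livers on Wy14643, against 8.86, 8.55, 8.87 and 8.49 in knockout livers on control food. Its values were 4.01, 5.25, 4.68 and 5.24 in wild-type livers on Wy14643, against 8.06, 8.01, 7.91 and 8.18 in wild-type livers on control food. Again the wild-type livers on Wy14643 lay below all others, with no overlap. The wild-type difference was -3.24 ± 0.23 (limma, adjusted p = 8.11e-09; -2.65 with 16 added to each intensity before the log2, a step that damps dim values), the knockout difference -0.22 ± 0.23, and the difference of the responses was 3.02 ± 0.32 (adjusted p = 3.69e-06).

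Sult1b1, which sulfates thyroid hormones and phenols, read 8.15, 8.19, 8.39 and 8.61 in knockout livers on Wy14643, against 8.19, 8.21, 8.27 and 8.42 in knockout livers on control food. In wild type it read 6.61, 6.06, 6.17 and 5.55 in wild-type livers on Wy14643, against 8.27, 7.97, 7.99 and 8.08 in wild-type livers on control food. The wild-type groups did not overlap, and the lowest wild-type liver on Wy14643 (5.55) belonged to replicate 4. The difference was -1.98 ± 0.17 in wild type (limma, adjusted p = 9.04e-08) and 0.07 ± 0.17 in knockouts, and the difference of the responses was 2.04 ± 0.24 (adjusted p = 9.77e-06). Its neighbour on chromosome 5, Sult1d1, which sulfates catecholamines in mouse, had a wild-type difference of -0.12 ± 0.12 (adjusted p = 0.542) and was not called in any comparison.

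Sult1c2, the fifth sulfotransferase, fell by 0.96 ± 0.23 on the log2 scale in wild type (limma, adjusted p = 0.0061), and the difference of the responses was 1.46 ± 0.33 (adjusted p = 0.00603). The wild-type call was lost without any of replicates 2, 3 and 4 on Wy14643 or 1, 2 and 3 on control food of the wild type (differences over all 16 left-out arrays -1.11 to -0.85, adjusted p up to 0.0246 where lost). With 16 added to each intensity neither call was made, at -0.53 in wild type (adjusted p = 0.0303) and 0.87 for the difference of the responses (adjusted p = 0.0202). The call on the difference of the responses was lost in 11 of 16 such refits, those without replicates 3 or 4 of the knockouts on Wy14643, 1, 3 or 4 of the knockouts on control food, 2, 3 or 4 of the wild type on Wy14643, or 1, 2 or 3 of the wild type on control food (differences over all refits 1.25 to 1.63, adjusted p up to 0.0159 where lost).

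**Figure D2:**
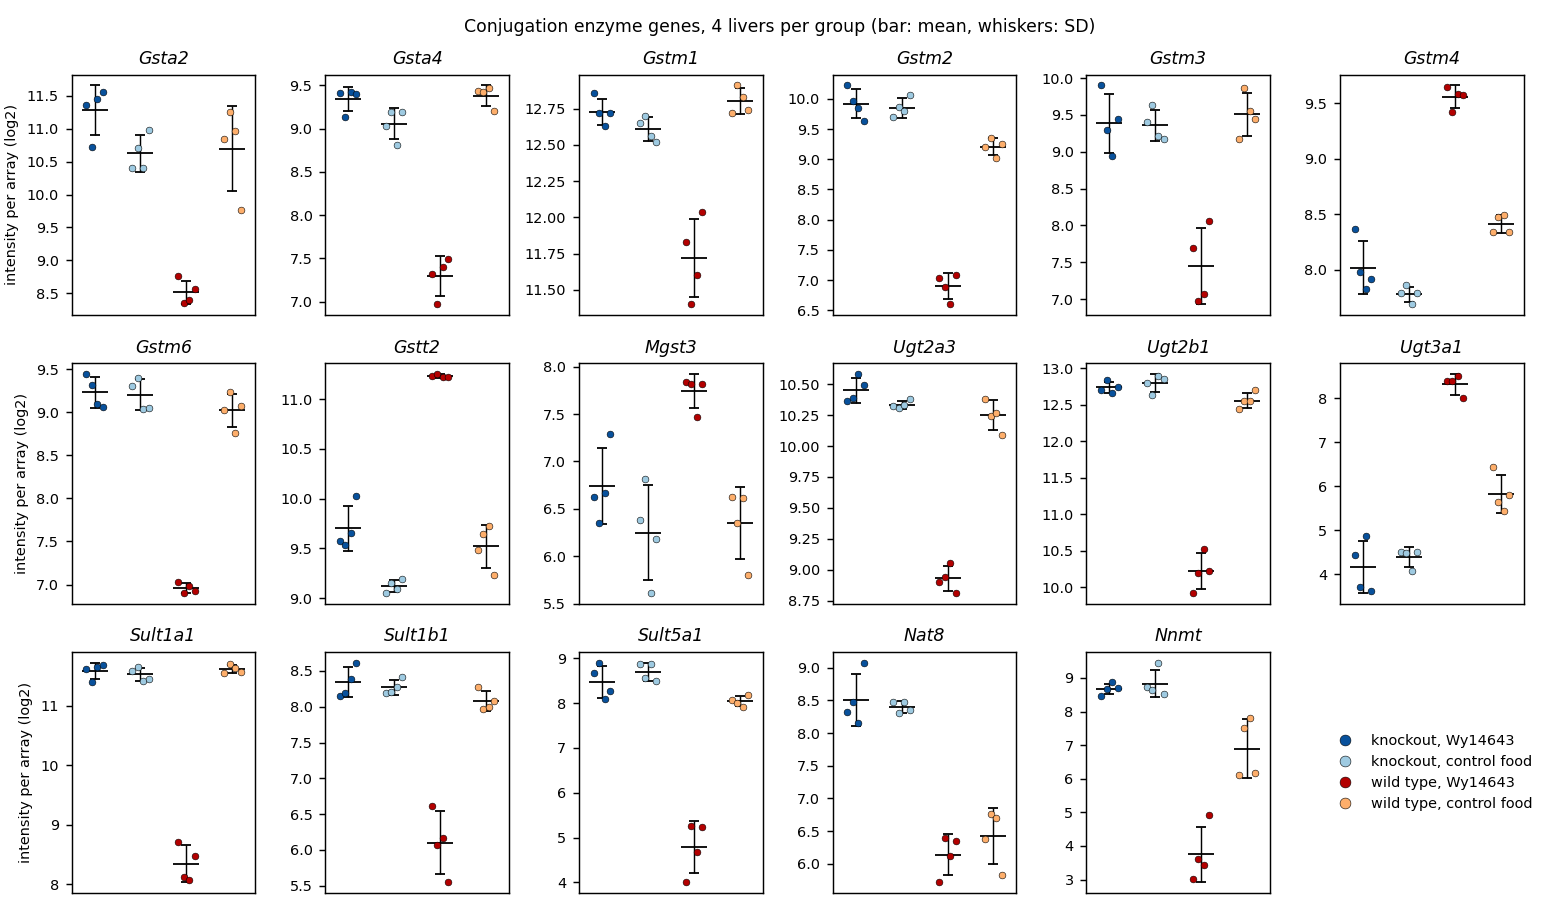
Log2 intensity of each liver (points) and the group mean (bar) for members with large differences (whiskers: SD, n = 4), with the groups in the order knockout on Wy14643, knockout on control food, wild type on Wy14643 and wild type on control food. For Sult1a1 the wild-type livers on Wy14643 sit between 8.07 and 8.71, below all the others at 11.40 or more.

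Among the glutathione S-transferases the alpha class fell in wild type. Gsta2, an alpha enzyme of hepatocytes, read 11.36, 10.72, 11.46 and 11.56 in knockout livers on Wy14643, against 10.41, 10.71, 10.41 and 10.98 in knockout livers on control food. It read 8.76, 8.35, 8.39 and 8.56 in wild-type livers on Wy14643, against 10.84, 11.25, 10.97 and 9.76 in wild-type livers on control food. Wild-type livers on Wy14643 lay below all others, and the knockout groups overlapped. Gsta2 fell 4.57-fold in wild type, with a log2 difference of -2.19 ± 0.26 (limma, adjusted p = 4.67e-06), against 0.65 ± 0.26 in knockouts (adjusted p = 0.445, not called). Its difference of the responses was 2.84 ± 0.36 (adjusted p = 2.79e-05). A further probe set, shared with Gsta1 and Gm3776 and so not counted here, gave -1.90 in wild type.

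Gsta4, which conjugates the lipid peroxidation product 4-hydroxynonenal, read 9.41, 9.13, 9.43 and 9.40 in knockout livers on Wy14643, against 9.03, 9.19, 8.81 and 9.19 in knockout livers on control food. In wild type the values were 7.32, 6.97, 7.4 and 7.49 in wild-type livers on Wy14643, against 9.44, 9.42, 9.47 and 9.20 in wild-type livers on control food. Wild-type livers on Wy14643 lay far below all others. Gsta4 fell by 2.09 ± 0.12 on the log2 scale in wild type (limma, adjusted p = 8.18e-10), against 0.29 ± 0.12 in knockouts, and the difference of the responses was 2.37 ± 0.17 (adjusted p = 3.83e-08). Gsta3, which detoxifies aflatoxin epoxide in mouse, fell by 0.62 ± 0.09 on the log2 scale (adjusted p = 6.86e-05), and the difference of the responses was 0.64 ± 0.13 (adjusted p = 0.00276). Without replicate 3 of the wild type on Wy14643 both Gsta3 values came under the fold minimum, at -0.56 and 0.58.

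The mu class, whose genes form a cluster on chromosome 3, went both ways. In chromosomal order the wild-type differences were -0.43 for Gstm7, -2.06 for Gstm6, -2.06 for Gstm3, -2.31 for Gstm2, -1.08 for Gstm1 and 1.14 for Gstm4. Thus Gstm6, Gstm3, Gstm2 and Gstm1 fell, Gstm4 at the end of the run rose, and Gstm7 (adjusted p = 0.00348) was under the fold minimum. The mu transferases are close paralogs, and the probe sets used for Gstm1 and Gstm3 carry suffixes that mark probes able to match related transcripts.

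Gstm2 read 10.22, 9.97, 9.85 and 9.63 in knockout livers on Wy14643, against 9.70, 9.86, 9.80 and 10.06 in knockout livers on control food. It read 7.03, 6.88, 6.60 and 7.08 in wild-type livers on Wy14643, against 9.21, 9.35, 9.02 and 9.26 in wild-type livers on control food. Wild-type livers on Wy14643 were lowest, and knockout livers on control food also lay above wild-type livers on control food without overlap. Gstm2 fell by 2.31 ± 0.13 on the log2 scale in wild type (limma, adjusted p = 6.51e-10), and the difference of the responses was 2.38 ± 0.19 (adjusted p = 1.12e-07). The genotype difference on control food was 0.64 ± 0.13 (adjusted p = 0.032, not called).

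Gstm6 read 9.44, 9.31, 9.09 and 9.06 in knockout livers on Wy14643, against 9.30, 9.40, 9.04 and 9.05 in knockout livers on control food. Its wild-type values were 7.03, 6.90, 6.98 and 6.93 in wild-type livers on Wy14643, against 9.02, 9.23, 8.76 and 9.07 in wild-type livers on control food. The wild-type livers on Wy14643 lay within a narrow band below all others. Gstm6 fell by 2.06 ± 0.12 on the log2 scale in wild type (limma, adjusted p = 5.74e-10), against 0.03 ± 0.12 in knockouts, and the difference of the responses was 2.09 ± 0.17 (adjusted p = 1.17e-07).

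Gstm3 read 9.90, 9.29, 8.94 and 9.44 in knockout livers on Wy14643, against 9.41, 9.63, 9.22 and 9.18 in knockout livers on control food. For wild type it read 7.69, 6.98, 7.07 and 8.06 in wild-type livers on Wy14643, against 9.18, 9.87, 9.56 and 9.44 in wild-type livers on control food. The values on Wy14643 spread more than those of Gstm6 but still did not reach any other group. Gstm3 fell by 2.06 ± 0.23 on the log2 scale in wild type (limma, adjusted p = 2.94e-06), and the difference of the responses was 2.09 ± 0.33 (adjusted p = 0.000229).

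Gstm1 read 12.86, 12.72, 12.63 and 12.72 in knockout livers on Wy14643, against 12.65, 12.70, 12.56 and 12.52 in knockout livers on control food. It read 11.83, 11.40, 11.60 and 12.04 in wild-type livers on Wy14643, against 12.72, 12.91, 12.83 and 12.74 in wild-type livers on control food. The wild-type livers on Wy14643 were again lowest, with no overlap. Gstm1 fell by 1.08 ± 0.12 on the log2 scale in wild type (limma, adjusted p = 1.51e-06), and the difference of the responses was 1.20 ± 0.16 (adjusted p = 5.05e-05). Its other 3 probe sets gave wild-type differences of -0.66, -0.97 and -1.31, and the dimmest of them (mean log2 value 2.34) was not called for the difference of the responses (adjusted p = 0.0122).

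Gstm4, the mu gene that rose, read 8.37, 7.98, 7.83 and 7.92 in knockout livers on Wy14643, against 7.79, 7.86, 7.69 and 7.79 in knockout livers on control food. It read 9.65, 9.42, 9.58 and 9.57 in wild-type livers on Wy14643, against 8.34, 8.48, 8.49 and 8.34 in wild-type livers on control food. Wild-type livers on Wy14643 were the highest, and knockout livers on control food lay below wild-type livers on control food without overlap. Gstm4 rose by 1.14 ± 0.11 on the log2 scale in wild type (limma, adjusted p = 3.08e-07), against 0.24 ± 0.11 in knockouts, and the difference of the responses was -0.90 ± 0.15 (adjusted p = 0.000458). On control food it was lower in knockouts, with a difference of -0.63 ± 0.11 (adjusted p = 0.00564), a call that was lost without any 1 of the 8 livers on control food (differences -0.66 to -0.60, adjusted p up to 0.0282).

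**Figure D3:**
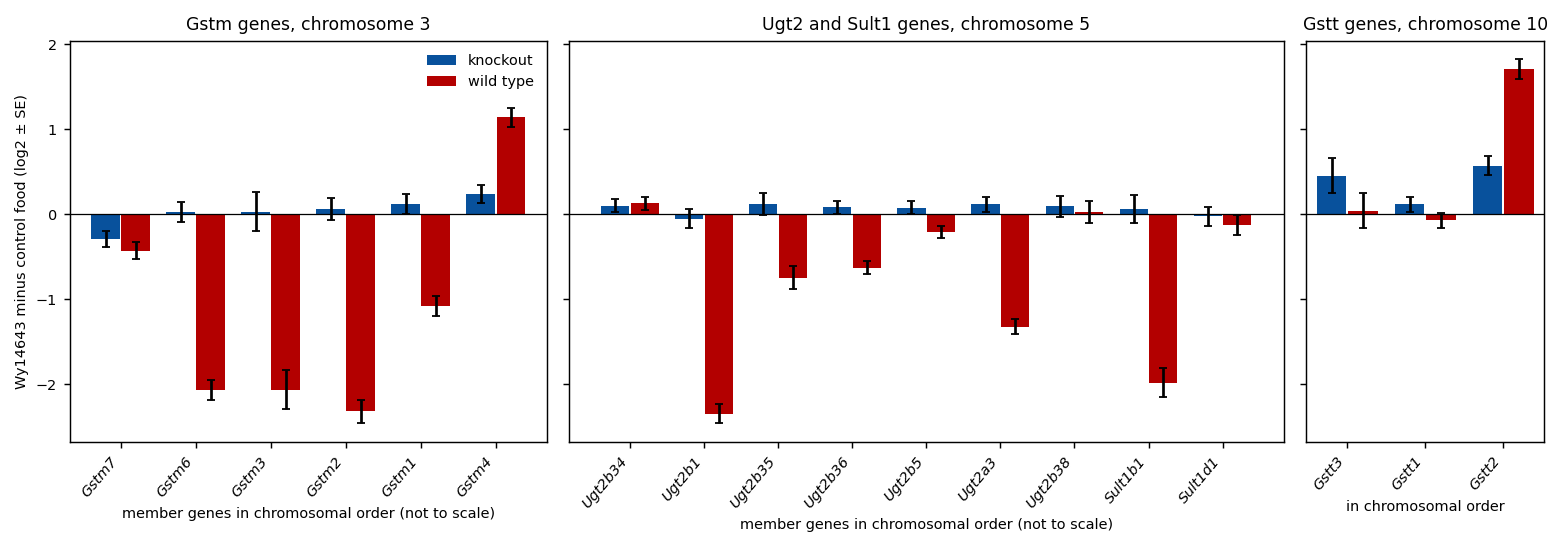
Log2 difference between Wy14643 and control food for member genes in their order along a chromosome (x axis, not to scale), in knockout and in wild-type livers (bars, with whiskers of ± 1 standard error). In wild type Gstm4 stands at 1.14 beside Gstm1 at -1.08, and Gstt2 at 1.71 beside Gstt1 at -0.07.

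Other glutathione S-transferases rose in wild type. Gstt2, a theta class enzyme, read 9.57, 9.53, 9.65 and 10.03 in knockout livers on Wy14643, against 9.05, 9.15, 9.09 and 9.19 in knockout livers on control food. It read 11.23, 11.25, 11.22 and 11.22 in wild-type livers on Wy14643, against 9.48, 9.64, 9.72 and 9.23 in wild-type livers on control food. The wild-type livers on Wy14643 differed little among themselves and lay above all others, and in knockouts the Wy14643 livers also lay above the control livers without overlap. Gstt2 rose 3.28-fold in wild type, with a log2 difference of 1.71 ± 0.12 (limma, adjusted p = 5.5e-09), against 0.57 ± 0.12 in knockouts (adjusted p = 0.0884, not called). The response was lower in knockouts, since the difference of the responses was -1.14 ± 0.17 (adjusted p = 0.000107). Gstt1 and Gstt3, its neighbours on chromosome 10, had wild-type differences of -0.07 and 0.04 and were not called.

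Mgst3, a membrane-bound transferase with peroxidase activity, read 6.63, 6.35, 6.67 and 7.29 in knockout livers on Wy14643, against 6.38, 6.81, 5.61 and 6.18 in knockout livers on control food. It read 7.84, 7.82, 7.47 and 7.82 in wild-type livers on Wy14643, against 6.63, 6.35, 6.61 and 5.80 in wild-type livers on control food. Wild-type livers on Wy14643 lay above all others, while the knockout livers spread widely and overlapped. Mgst3 rose by 1.39 ± 0.24 on the log2 scale in wild type (limma, adjusted p = 0.000294), but the difference of the responses, -0.90 ± 0.34, was not called (adjusted p = 0.102). Its dim second probe set gave 0.07 in wild type, and the mean of both probe sets 0.73, still called. Gstk1, the kappa class enzyme of mitochondria and peroxisomes, rose by 0.90 ± 0.07 on the log2 scale (adjusted p = 6.46e-08), and the difference of the responses was -0.82 ± 0.10 (adjusted p = 2.56e-05).

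Gstp1, the pi class enzyme, had a wild-type difference of -0.58 ± 0.08 (limma, adjusted p = 2.18e-05), at 1.49-fold just under the fold minimum. It passed that minimum without replicate 1 or 4 of the wild type on Wy14643, or replicate 1 on control food, at -0.59, -0.60 and -0.60. Its difference of the responses, 0.56 ± 0.11 (adjusted p = 0.00183), was likewise under the fold minimum but passed at 0.59 without replicate 3 of the knockouts on Wy14643. Gsto1, Gstz1 (maleylacetoacetate isomerase of tyrosine breakdown) and Mgst1 were not called, with wild-type differences of 0.21, -0.15 and 0.07.

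Of the glucuronidation genes Ugt3a1 rose and the Ugt2 genes that changed fell. Ugt3a1, whose human counterpart transfers N-acetylglucosamine, read 4.44, 3.71, 4.86 and 3.62 in knockout livers on Wy14643, against 4.5, 4.49, 4.07 and 4.51 in knockout livers on control food. It read 8.39, 8.39, 8.52 and 8.0 in wild-type livers on Wy14643, against 6.43, 5.65, 5.44 and 5.80 in wild-type livers on control food. Here the livers fell into separate ranges, with wild type on Wy14643 highest, wild type on control food next, and both knockout groups below 5. Ugt3a1 rose 5.64-fold in wild type, with a log2 difference of 2.50 ± 0.25 (limma, adjusted p = 6.19e-07), against -0.23 ± 0.25 in knockouts, and the difference of the responses was -2.73 ± 0.35 (adjusted p = 2.86e-05). On control food it was already lower in knockouts, with a difference of -1.44 ± 0.25 (adjusted p = 0.00637). That call was lost in 9 of 16 refits without 1 array, including each of the 4 knockout livers on control food, replicates 1, 2 and 4 of the wild type on control food, and replicates 1 and 2 of the wild type on Wy14643 (differences over all refits -1.57 to -1.24, adjusted p up to 0.032 where lost). It was also lost with 16 added to each intensity, at -0.98 (adjusted p = 0.0159). A second Ugt3a1 probe set gave -1.53 on control food (adjusted p = 0.0192, not called). Ugt3a2, its neighbour on chromosome 15, had a wild-type difference of -0.14 ± 0.09 (adjusted p = 0.388).

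No promoter window was at hand for Gsta4, Gstt2, Ugt3a2, Nnmt or Nat2, which were not searched. Promoter windows were available in RefSeq for the other 33 members (43 windows, GRCm38.p6). They were searched on both strands for the direct repeat to which PPARα with RXR binds (2 half-sites AGGTCA in the same direction with 1 base between them) and for TGACNNNGC, the core of the antioxidant response element bound by Nrf2. The direct repeat with at most 1 mismatch was found in 0 of the 43 windows, beside 0.554% of all 32851 windows. With at most 2 mismatches it was found in 1 window, that of Ugt2b36 (2.33%, beside 3.86% of all windows). The antioxidant core was found in the windows of Gsta3, Gstm7, Ugdh and Mgst1, 9.3% of the members' windows beside 12.4% of all. A match is only a description of the letters. With so low a share over all windows, 0 of 43 says little. The windows run from 250 bases before to 50 after the start, and sites farther away were not searched. The Ugt3a1 window (chr15:9279579-9279878, plus strand) is shown because the gene had the largest increase. The Ugdh window (chr5:65435793-65436092, minus strand) and the Ugt2b36 window (chr5:87092506-87092805, minus strand) were chosen after the search for their matches, which are in capitals (the antioxidant core on each strand in Ugdh, the imperfect direct repeat in Ugt2b36).
Ugt3a1 promoter: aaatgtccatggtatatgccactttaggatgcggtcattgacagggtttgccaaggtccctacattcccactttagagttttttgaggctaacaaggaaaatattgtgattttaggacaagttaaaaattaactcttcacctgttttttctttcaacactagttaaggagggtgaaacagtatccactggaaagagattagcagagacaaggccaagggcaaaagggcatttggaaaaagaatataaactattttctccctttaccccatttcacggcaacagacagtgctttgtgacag
Ugdh promoter: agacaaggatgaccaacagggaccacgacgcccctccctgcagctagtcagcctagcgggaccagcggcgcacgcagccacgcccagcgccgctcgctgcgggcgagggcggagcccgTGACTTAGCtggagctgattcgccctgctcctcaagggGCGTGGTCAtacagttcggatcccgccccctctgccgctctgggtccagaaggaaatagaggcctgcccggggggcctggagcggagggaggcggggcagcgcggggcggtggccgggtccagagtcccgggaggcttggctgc
Ugt2b36 promoter: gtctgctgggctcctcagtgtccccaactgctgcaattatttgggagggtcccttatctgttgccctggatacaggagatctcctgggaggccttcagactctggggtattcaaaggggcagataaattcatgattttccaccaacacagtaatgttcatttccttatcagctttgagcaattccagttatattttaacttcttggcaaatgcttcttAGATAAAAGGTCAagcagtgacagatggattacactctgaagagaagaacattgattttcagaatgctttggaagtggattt

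Ugt2b1, a steroid- and drug-conjugating enzyme, read 12.71, 12.84, 12.67 and 12.75 in knockout livers on Wy14643, against 12.80, 12.63, 12.90 and 12.85 in knockout livers on control food. It read 9.92, 10.19, 10.53 and 10.23 in wild-type livers on Wy14643, against 12.45, 12.55, 12.56 and 12.70 in wild-type livers on control food. Wild-type livers on Wy14643 lay more than 1 log2 unit below every other liver. Ugt2b1 fell 5.08-fold in wild type, with a log2 difference of -2.35 ± 0.11 (limma, adjusted p = 5.47e-11), against -0.05 ± 0.11 in knockouts, and the difference of the responses was 2.29 ± 0.16 (adjusted p = 1.98e-08).

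Ugt2a3 read 10.36, 10.39, 10.58 and 10.49 in knockout livers on Wy14643, against 10.32, 10.31, 10.33 and 10.38 in knockout livers on control food. It read 8.90, 8.94, 9.05 and 8.81 in wild-type livers on Wy14643, against 10.38, 10.24, 10.27 and 10.09 in wild-type livers on control food. The spread within each group was small beside the gap between wild-type livers on Wy14643 and the rest. Ugt2a3 fell by 1.32 ± 0.09 on the log2 scale in wild type (limma, adjusted p = 3.57e-09), and the difference of the responses was 1.44 ± 0.12 (adjusted p = 2.59e-07).

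Both genes lie in a run of Ugt2 genes on chromosome 5. Of the others there, Ugt2b35 fell by 0.74 ± 0.13 on the log2 scale in wild type (limma, adjusted p = 0.00041), and the difference of the responses was 0.87 ± 0.19 (adjusted p = 0.00402). Ugt2b36 fell by 0.63 ± 0.08 on the log2 scale (adjusted p = 7.83e-06), and the difference of the responses was 0.71 ± 0.11 (adjusted p = 0.000175). For Ugt2b35 the call on the difference of the responses was lost without replicate 1 of either knockout group or replicate 2 of either wild-type group, with differences of 0.80 to 0.84 and adjusted p of up to 0.0109. Ugt2b34 and Ugt2b5 had wild-type differences of 0.13 and -0.21 and were not called, and Ugt2b38 was too dim to read, with group means of 1.72 to 1.87 below the array medians of 2.15 to 2.24. A second Ugt2b34 probe set (mean log2 value 10.92) went the other way in wild type, at -0.25 without overlap (limma, adjusted p = 0.0382). Between the genotypes on Wy14643 it gave 0.47 (adjusted p = 0.00032), under the fold minimum, and neither was called. Probe sets that Ugt1a1 shares with other Ugt1a genes gave wild-type differences of 0.10 to 0.20, none called.

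Ugdh, which oxidises UDP-glucose to the donor UDP-glucuronic acid, rose by 0.80 ± 0.10 on the log2 scale in wild type (limma, adjusted p = 1.06e-05), against 0.34 ± 0.10 in knockouts (adjusted p = 0.257, not called). Its difference of the responses, -0.46 ± 0.14, was not called (adjusted p = 0.0442). Ugp2, which makes UDP-glucose and is not a member, fell by 1.78 ± 0.12 on the log2 scale in wild type (adjusted p = 6.14e-09). The transcripts of Ugp2 and Ugdh thus moved in opposite directions in wild type, and enzyme amounts were not measured.

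Of the methyl- and acetyltransferases, Nnmt and Nat8 differed most. Nnmt, which methylates nicotinamide, read 8.47, 8.66, 8.87 and 8.69 in knockout livers on Wy14643, against 8.74, 8.64, 9.44 and 8.52 in knockout livers on control food. It read 3.03, 3.61, 3.44 and 4.92 in wild-type livers on Wy14643, against 6.11, 7.52, 7.80 and 6.18 in wild-type livers on control food. The wild-type groups did not overlap although both were spread widely, and all knockout livers lay above all wild-type livers. Nnmt fell 8.88-fold in wild type, with a log2 difference of -3.15 ± 0.39 (limma, adjusted p = 9.03e-06), and the difference of the responses was 2.99 ± 0.55 (adjusted p = 0.00109). With 16 added to each intensity the wild-type difference was -2.18 and the difference of the responses 2.03, both still called. The genotypes on control food differed by 1.93 ± 0.39 (adjusted p = 0.0249, not called), which was called without replicate 4 of the wild type on Wy14643 (adjusted p = 0.00589), an array that enters this comparison only through the shared spread.

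Nat8, which acetylates cysteine conjugates to mercapturic acids, the last step of the glutathione route, read 8.32, 8.47, 8.15 and 9.07 in knockout livers on Wy14643, against 8.48, 8.30, 8.48 and 8.35 in knockout livers on control food. It read 5.72, 6.39, 6.12 and 6.34 in wild-type livers on Wy14643, against 6.38, 6.76, 6.70 and 5.83 in wild-type livers on control food. Here the split followed genotype and not food, since every knockout liver lay above every wild-type liver and the foods overlapped within each genotype. Nat8 was higher in knockouts by 2.36 ± 0.21 on Wy14643 (limma, adjusted p = 1.54e-07) and by 1.98 ± 0.21 on control food (adjusted p = 3.69e-05). Its wild-type difference was -0.28 ± 0.21 (adjusted p = 0.44) and its difference of the responses 0.38 ± 0.30 (adjusted p = 0.518), neither called.

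Tpmt, which methylates thiopurine drugs, had a wild-type difference of -0.20 ± 0.09 (limma, adjusted p = 0.161). A dimmer probe set gave -0.60 and was called (adjusted p = 0.0022), as was its genotype difference on Wy14643 of 0.74 (adjusted p = 0.000308). The remaining Tpmt probe sets, dimmer still, gave -0.30 and -0.27 in wild type (adjusted p = 0.395 and 0.309). Between the genotypes on Wy14643 they gave 0.45 and 0.41 (adjusted p = 0.17 and 0.0942), and none of these was called. Nat2, an arylamine N-acetyltransferase, had 0.11 ± 0.17 (adjusted p = 0.727).

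Set against each other on Wy14643, which shares the wild-type livers on Wy14643 with the wild-type response, knockout livers were higher than wild-type livers for 18 members and lower for 5, beside 15.3% of all genes called (7.13% higher and 8.12% lower), with a median of 0.40. Among the 5170 genes with a mean log2 value above 6, 825 were higher and 696 lower in knockouts. Of the 34 members as bright as that, 17 were higher and 4 lower. Nnmt had the largest difference upwards, 4.92 ± 0.39 (limma, adjusted p = 3.5e-08), and Ugt3a1 the largest downwards, -4.17 ± 0.25 (adjusted p = 7.53e-10). Both sizes rest on a dim group, with a mean of 3.75 for Nnmt in wild type on Wy14643 and 4.16 for Ugt3a1 in knockouts on Wy14643, and with 16 added to each intensity they were 3.81 and -3.29. The Sult5a1 difference, 3.68 ± 0.23, was 3.07 under the same step. The others lower in knockouts were Gstk1, Gstm4, Gstt2 and Mgst3. The Mgst3 difference, -1.0 ± 0.24 (adjusted p = 0.00482), lost its call in 6 of 16 refits without 1 array, those without replicates 1, 2 or 3 of the knockouts or 1, 2 or 4 of the wild type on Wy14643 (-0.98 to -0.88, adjusted p up to 0.021). It was also lost with the mean of both Mgst3 probe sets, at -0.50, since the dim second one gave 0.00. Gstp1, at 0.61 ± 0.08 (adjusted p = 1.11e-05), came to 0.57, under the fold minimum, without replicate 2 of the wild type on Wy14643, and to 0.58 with arrays centred on their medians.

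On control food, 3 members differed between the genotypes, Nat8 higher and Gstm4 and Ugt3a1 lower in knockouts, beside 0.544% of all genes (0.143% higher and 0.401% lower). Among the 5170 genes with a mean log2 value above 6, 11 were higher and 51 lower in knockouts. Of the 34 members as bright as that, 1 was higher and 1 lower. Without overlap between the genotypes were 13 members (7 higher and 6 lower), beside 8.16% of all genes (3.99% higher and 4.18% lower). Thus Nat8 was the only member called in both genotype comparisons without a call in the wild-type response, while Gstm4 and Ugt3a1 were called in both and rose on Wy14643.

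**Figure D4:**
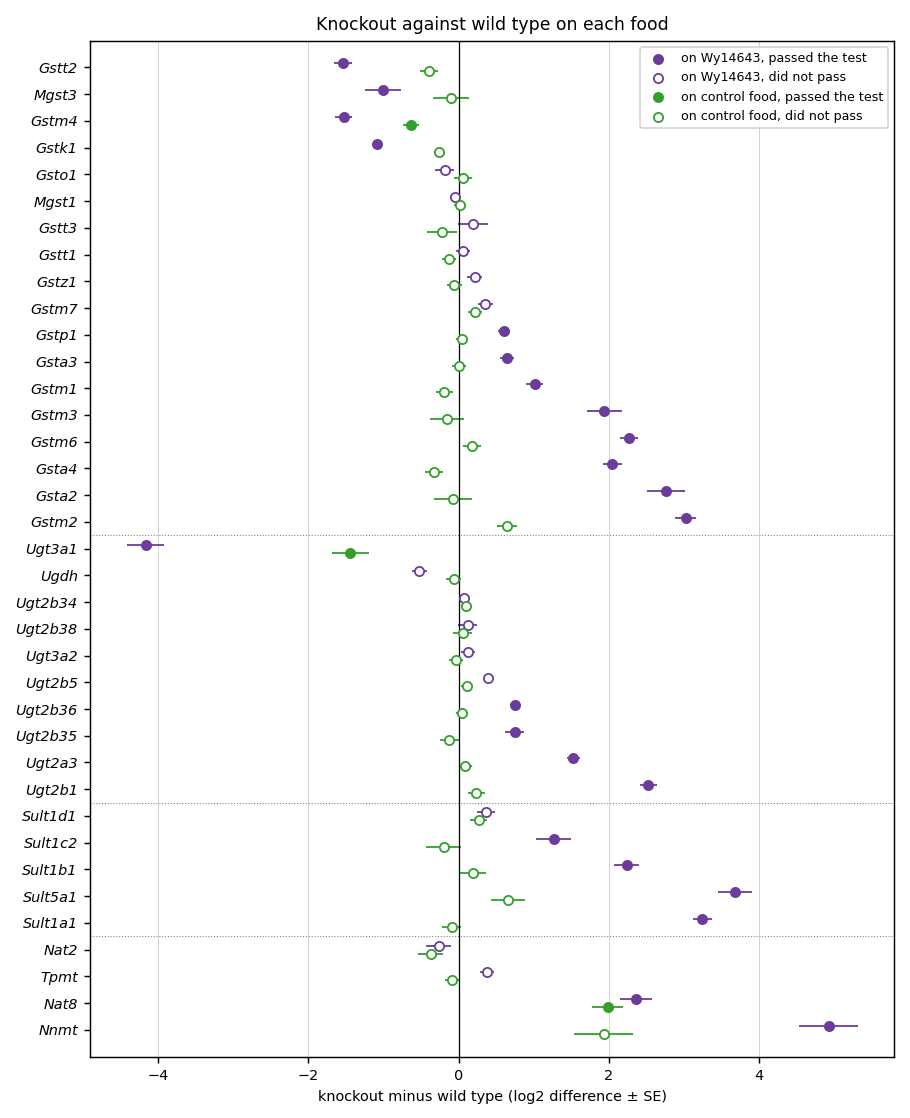
Log2 difference between knockout and wild-type livers for each member on control food and on Wy14643, 4 livers in each group. Nat8 lies high on both foods, at 1.98 and 2.36, while Ugt3a1 lies low on both, at -1.44 and -4.17.

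Genes that supply the donors or belong to the same families outside the member list were counted the same way. In the wild-type response 7.72% of all genes were called higher and 6.74% lower. Among genes with a mean log2 value above 6 these shares were 12.4% and 15.9%. Of 13 measured genes of other glutathione S-transferases and glutathione supply, 2 rose and 5 fell in wild type on Wy14643, at a median of -0.18. Ggct, which breaks down gamma-glutamyl peptides, rose by 2.73 ± 0.29 on the log2 scale (limma, adjusted p = 1.56e-06). Cbs and Cth, the enzymes that make cysteine from homocysteine, fell, with differences of -2.29 ± 0.11 (adjusted p = 4.07e-11) and -1.44 ± 0.11 (adjusted p = 1.69e-08). Gstp3, a pi class relative of Gstp1, fell by 1.95 ± 0.15 on the log2 scale (adjusted p = 3.16e-08). The other 2 that fell, Gclc and Gclm, chosen after their values were seen, encode the subunits of the enzyme that starts glutathione synthesis, at -0.82 and -0.86. The other gene of this list that rose is not named here. Of 5 other glucuronidation genes only Ugp2 was called.

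In wild type 6.74% of all genes were called lower, and 15.9% of those with a mean log2 value above 6. Of 13 measured genes of other sulfotransferases and sulfate supply, 3 fell in wild type and none rose, at a median of -0.14. These were the sulfate transporter Slc26a1 (-2.09 ± 0.33), the PAPS-making enzyme Papss1 (-0.89 ± 0.16) and Sult2a8 (-0.82 ± 0.09), with adjusted p = 0.000149, 0.000553 and 1.67e-06 in limma. For Slc26a1 and Papss1 the difference of the responses was not called (adjusted p = 0.0184 and 0.0824).

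Of 19 measured methyl- and acyltransferases outside the member list, 7 fell in wild type and none rose, beside 6.74% of all genes called lower. The share called lower was 15.9% for genes with a mean log2 value above 6. The largest decreases were in Nat8f1, a relative of Nat8 (-2.54 ± 0.10), Gamt, the last enzyme of creatine synthesis (-1.85 ± 0.11), Gnmt, which methylates glycine (-1.44 ± 0.08), and Hnmt, which methylates histamine (-1.31 ± 0.15). In knockouts 0 of the 50 genes measured over these lists were called in limma, beside 0.0275% of all genes. At an unadjusted limma p under 0.05 stood 3 of them, a threshold at which all genes were not counted. Unlike Nat8, its relative Nat8f1 differed by -0.05 ± 0.10 between the genotypes on control food (adjusted p = 0.953).

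Markers of other liver cells moved with the same comparison, in which 7.72% of all genes were called higher and 6.74% lower. For genes with a mean log2 value above 6 the shares were 12.4% and 15.9%. Of 12 Kupffer cell markers 10 fell in wild type, and their summed intensity was 1405 to 1914 in knockout livers on Wy14643, 1597 to 1962 in knockout livers on control food, 737 to 953 in wild-type livers on Wy14643 and 1387 to 1602 in wild-type livers on control food. Of 12 stellate cell markers 5 fell, with sums of 3298 to 3899, 3283 to 3713, 1997 to 2192 and 3054 to 3343 in the same groups. Of 12 endothelial markers 3 fell and 1 rose, with sums of 1705 to 1933, 1648 to 1856, 1270 to 1502 and 1702 to 1935. Of 10 hepatocyte markers 2 fell, Fgb and Cps1, and the list was bright in every liver, with sums of 93100 to 96300, 93880 to 96310, 80060 to 84010 and 96210 to 98840.

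None of the markers of bile duct cells (8 measured, 3 dim in all groups), T and NK cells (7, with 5 dim), B cells (6, with 2 dim) or neutrophils (6, with 3 dim) was called. The bile duct sums were 426.8 to 544.5 and 374.4 to 508.3 in knockouts on Wy14643 and on control food. They were 317 to 362.9 and 417.5 to 485.3 in wild type on the same foods, lowest on Wy14643 without overlap. The median bile duct difference in wild type was 0.06. Of 7 kidney and intestine markers 5 were dim in all groups and Fabp2, a fatty acid binding protein, rose, with sums of 503 to 616 and 475 to 552 in knockouts on Wy14643 and on control food, and 1529 to 1731 and 503 to 602 in wild type on Wy14643 and on control food. The part of these shifts in the members' differences was not tested.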

How the data were processed

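The authors deposited normalized intensities, 1 for each array and probe set, and the submitters' processing notes name GCRMA 2.20. GCRMA returns log2 values, but the array medians (4.42 to 4.72) and maxima (18107 to 22364) showed a linear scale for the deposited intensities, so log2 was taken with no offset. Such normalization evens out shifts shared by most genes, and dim values depend on its background step. The number of arrays limits the precision. The 64 control probe sets were left out. Of the probe sets, 34945 were annotated to 1 gene, 932 to more than 1, and 9160 were unnamed here.

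A linear model with a mean for each of the 4 groups was fitted to 45037 probe sets on all 16 arrays (limma 3.58.1, R 4.3.3), after a test of the script on simulated data. A gene was represented by its brightest single-gene probe set. The members and all gene and marker lists were chosen with earlier results of these data known. Values of every array are given for members called with a log2 difference of at least 1 in the wild-type response, on control food or in the difference of the responses, at a group mean of at least 6. From each further list up to 4 called genes were named. The replicates are separate mice. Alternatives were filters at mean log2 values above 4 or 6, median centring, quantile normalization, an offset of 16, array weights, trend with robust moderation, only the groups compared, replicate number as a block, an adjusted p under 0.05 with no fold minimum, a test against the 1.5-fold minimum (treat), the mean of a gene's probe sets, and each array left out. Promoters came from RefSeq tables, and no protein sequences were used here.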

Additional observations from a re-analysis of the deposited data

Results flagged for a closer look

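In 9 of 148 groups of 4 livers (37 members in 4 groups) 1 liver stood apart from the other 3 by Dixon's test, which chance does in about 1 group in 20. These log2 values were low for Gsta3 in wild type on control food replicate 4 (12.92, nearest 13.02), Gsta4 in knockout on Wy14643 replicate 2 (9.13, nearest 9.40), Gsto1 in knockout on control food replicate 1 (8.53, nearest 8.85), Mgst3 in wild type on Wy14643 replicate 3 (7.47, nearest 7.82), Ugdh in knockout on Wy14643 replicate 3 (10.69, nearest 10.89), Ugt2b34 in wild type on control food replicate 4 (11.22, nearest 11.30) and Ugt3a1 in knockout on control food replicate 3 (4.07, nearest 4.49). They were high for Gsto1 in replicate 2 of the wild type on Wy14643 (9.07, nearest 8.91) and on control food (8.91, nearest 8.67).

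The responses of the genotypes to Wy14643 differed by the interaction test (limma, adjusted p under 0.01 and fold over 1.5) for 20 members, given as the knockout response minus the wild-type response in log2. Among glutathione S-transferases it was 2.84 for Gsta2 (adjusted p = 2.79e-05), 0.64 for Gsta3 (0.00276), 2.37 for Gsta4 (3.83e-08), -0.82 for Gstk1 (2.56e-05), 1.20 for Gstm1 (5.05e-05), 2.38 for Gstm2 (1.12e-07), 2.09 for Gstm3 (0.000229), -0.90 for Gstm4 (0.000458), 2.09 for Gstm6 (1.17e-07) and -1.14 for Gstt2 (0.000107). Among glucuronidation genes it was 1.44 for Ugt2a3 (2.59e-07), 2.29 for Ugt2b1 (1.98e-08), 0.87 for Ugt2b35 (0.00402), 0.71 for Ugt2b36 (0.000175) and -2.73 for Ugt3a1 (2.86e-05). Among the rest it was 3.33 for Sult1a1 (7.05e-10), 2.04 for Sult1b1 (9.77e-06), 1.46 for Sult1c2 (0.00603), 3.02 for Sult5a1 (3.69e-06) and 2.99 for Nnmt (0.00109).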

How the results depend on the processing

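Over the 5 comparisons, 68 member differences were called. Of these 44 were called under every alternative that gave a value, 24 lost the call under at least 1, of which 15 only under treat, and 0 changed sign. Under treat the difference of the responses called 10 members with a higher and 1 with a lower response in knockouts, against 16 and 4. On control food, members higher in knockouts numbered 1 in the result given, 2 with a mean log2 value above 6 or with trend and robust moderation (Gstm2 added), 3 at an adjusted p under 0.05 with no fold minimum, and 1 to 2 with an array left out. Members lower in knockouts there numbered 2 in the result given, 1 with an offset of 16 or with replicate block, 0 under treat, and 0 to 2 with an array left out. They numbered 1 with a mean log2 value above 6, a filter that leaves out Ugt3a1 (mean 5.68), which gave no value there. The cause of the other shifts was not tested. With the replicate number as a block, 6 members rose and 15 fell in wild type, 0 were called in knockouts, 18 were higher and 5 lower in knockouts on Wy14643, and 15 and 4 were called for the difference of the responses. The calls lost with the block were Sult1c2 in wild type (adjusted p = 0.0122) and in the difference of the responses (0.0129), and Gstm4 on control food (0.0146). Deviations of same-numbered arrays correlated at -0.12 to 0.19, over 0.1 in 6 of 24 pairs, and 6 of 16 arrays correlated best with their own number, so the numbers were not taken to pair the mice. Fitting only the groups compared could not be done for the difference of the responses, which needs all 4 groups. Fold changes of dim members depend on the background step, and Ugt2b38 was below the array medians in every group.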

Other observations

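Sult1e1, the estrogen sulfotransferase, is not a member and was chosen after its values were seen. It read 7.15, 7.28, 7.64 and 7.63 in knockout livers on Wy14643, against 7.71, 5.74, 6.65 and 7.79 in knockout livers on control food. It read 3.01, 3.05, 1.83 and 3.84 in wild-type livers on Wy14643, against 3.32, 3.40, 2.33 and 2.25 in wild-type livers on control food. Every knockout liver lay above every wild-type liver on both foods, and the lowest knockout value, 5.74, came from a liver on control food. Sult1e1 was higher in knockouts by 4.49 on Wy14643 (limma, adjusted p = 4.33e-07) and by 4.14 ± 0.44 on control food (adjusted p = 3.45e-05), and its wild-type difference on Wy14643 was 0.11, not called. The wild-type means of 2.93 on Wy14643 and 2.83 on control food lay close to the array medians of 2.15 to 2.24, so the sizes depend on the background step and are not exact. It was the only gene of the further conjugation lists called between the genotypes on control food, and like Nat8 it lies in a comparison where genotype and substrain cannot be told apart.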
